A study of Rattus norvegicus with 52 samples.

Results

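Basal and luminal mammary epithelial cells were compared within the same rats in the estradiol experiment, which gave 12 of the 52 samples of the series. The 12 were chosen by their labels as all count files of that experiment, 6 of basal and 6 of luminal cells, and each basal library was set against the luminal library that carries the same animal number or numbers in its title. The question was whether the difference between the lineages shrank or grew under 17β-estradiol (E2) and whether it differed between ACI rats, an inbred strain that develops mammary cancer under E2, and BN rats, an inbred strain that resists it. Female rats were given a silastic implant at 9 weeks of age, either empty (control) or filled with E2, and mammary glands were taken 3 weeks later, dissociated and sorted by flow cytometry for surface proteins that include CD24 and CD29. There were 2 ACI control rats (here rats A and B), 2 E2-treated ACI rats (rats C and D), 1 BN control and 1 BN E2 sample. The BN titles carry a pair of animal numbers each, and whether the cells of both rats were pooled is not stated in the sources used here, so each is counted as 1 animal. No genetic alteration is labelled in these rats, and all of them carried an implant. The other libraries of the series come from wild-type and *Cdkn1b* knockout rats, and of these only wild-type rats of 4 weeks, and of 9 weeks as an alternative, were used here to define lineage genes outside the experiment. These wild-type rats were of the ACI strain with no treatment labelled, so no BN or E2-treated rat entered the lists.

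The mammary duct is built of an inner layer of luminal cells, which line the lumen and form the milk-secreting alveoli, and an outer layer of basal cells, most of which are contractile myoepithelial cells that lie on the basement membrane. Basal cells are known for keratins 5 and 14, p63 and smooth muscle proteins, and luminal cells for keratins 8 and 18, tight junctions, mucins and milk proteins. The estrogen and progesterone receptors are found in a part of the luminal cells, and their signals reach neighbouring cells through secreted ligands.

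The libraries held between 13659389 and 25280421 reads assigned to genes, and 11808 genes passed the filter on low counts. The pair of libraries of ACI E2 rat C stood apart. In its basal library 36.0% of the tested genes had no count and in its luminal library 27.2%, against 3.90% to 17.6% in the other 10 libraries. That luminal library was also the shallowest and had the largest share of reads not assigned to a gene, 74.7%. The BN E2 basal library differed from the other basal libraries in the levels of several stromal markers, described with the stromal genes. In sorted bulk cells, fewer cells of a type and less RNA per cell cannot be told apart. Values are counts scaled to library size with TMM factors (CPM), and lineage differences are log2 ratios of basal over luminal CPM. The ± after a fitted ratio gives an approximate standard error. It is the absolute ratio divided by the square root of the F statistic of edgeR's test.

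Over all 6 animals, 188 genes were higher in basal cells and 102 in luminal cells at an adjusted p under 0.05 in edgeR's quasi-likelihood test with the animal as a block, which is 1.59% and 0.864% of the genes tested. Of the 290 genes, 275 had the same direction in all 6 animals, and in 150 the basal and luminal libraries did not overlap. Among all genes tested, 2045 had the same direction in all 6 animals (17.3%) and 548 did not overlap (4.64%). The median ratio over all genes was -0.085. Without rat C, 642 genes passed the test, of which 283 were among the 290. Leaving out any of the other animals left between 27 genes (without rat B) and 122 genes (without BN E2).

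The basal genes with the largest ratios by the rule used to choose them were *Sema5a*, *Plagl1*, *Fmod*, *Cacna1c*, *Zeb2*, *Adcy3*, *Dll1*, *Mylk*, *Col4a1* and *Angpt2*, with fitted log2 ratios from 5.01 (*Angpt2*) to 6.97 (*Sema5a*). *Zeb2*, a zinc finger repressor known from epithelial to mesenchymal transition, had a ratio of 6.39 and 4.71 in the ACI controls, 4.06 in rat C, 4.67 in rat D, 4.95 in BN control and 8.12 in BN E2. Its basal libraries lay between 53.0 and 510 CPM and its luminal libraries between 0.10 and 23.7, so the groups did not overlap (fitted log2 ratio 5.41 ± 0.66, adjusted p = 0.0106). *Sema5a*, a semaphorin of cell guidance, had 108 to 259 CPM in basal and 0 to 12.9 CPM in luminal libraries (adjusted p = 0.0292). *Dll1*, a ligand of Notch receptors, lay between 38.8 and 278 CPM in basal libraries and between 0.054 and 10.4 CPM in luminal libraries (5.24 ± 0.99, adjusted p = 0.0383). *Cacna1c*, a subunit of the L-type calcium channel, had 31.5 to 109 CPM against 0.26 to 5.71 CPM. Each of these 4 genes was thus above every luminal library in every basal library.

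On the luminal side the same rule gave *Ceacam1*, *Vtcn1*, *Nectin4*, *Muc15*, *Slc34a2*, *Kit*, *Cldn4*, *Aqp5*, *Gjb2* and *Rasef*, with fitted ratios from -7.59 (*Rasef*) to -11.55 (*Ceacam1*). Several of them were at 0 in most basal libraries, so their fitted ratios depend on how counts of 0 are handled, and their levels say more. *Ceacam1*, a cell adhesion molecule of the apical membrane, had 87 counts in all basal libraries together, in rat D, and 20040 in the luminal libraries. *Nectin4*, an adhesion protein, had 75 counts in the basal and 13743 in the luminal libraries. *Gjb2*, the gap junction protein connexin 26, was at 0 to 26.0 CPM in basal and 26.2 to 667 CPM in luminal libraries. *Aqp5*, a water channel, had 1544 and 682 CPM in the luminal libraries of the ACI controls and 4.65 to 30.3 CPM in the other 4 luminal libraries, and its groups overlapped.

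Genes of luminal keratins, junctions and the luminal surface were lower in basal cells in the fitted ratio for 18 of 18 members tested, and 6 of them passed the test, with a median ratio of -4.37. The 6 were *Krt18*, the claudins *Cldn3*, *Cldn4* and *Cldn7*, the mucin *Muc1* and *Ceacam1*. *Krt18*, a keratin of simple epithelia, had 206 and 43.7 CPM in the basal libraries of the ACI controls, 0.56 in rat C, 269 in rat D, 22.6 in BN control and 98.1 in BN E2. Its luminal libraries had 4507 and 5813 CPM in the ACI controls, 1500 in rat C, 3279 in rat D, 2047 in BN control and 1010.3 in BN E2. The libraries did not overlap, and the basal library of rat C was the lowest (fitted log2 ratio -5.67 ± 1.13, adjusted p = 0.0434). *Cldn4*, a tight junction protein, had a ratio of -6.33 and -9.83 in the ACI controls, -9.28 in rat C, -7.98 in rat D, -11.11 in BN control and -4.62 in BN E2 (-8.31 ± 1.10, adjusted p = 0.0149). *Muc1* had 8 counts in all basal libraries and 11722 in the luminal libraries (adjusted p = 0.00787). Without rat C, 14 of the 18 passed, and with any other animal left out 1 to 3 did.

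*Krt8*, *Krt19*, *Epcam* and *Cd24* did not pass the test. Their ratios were below 0 in all 6 animals, with fitted values of -3.77 ± 0.83 for *Krt8* (adjusted p = 0.0601), -4.38 ± 1.15 for *Krt19* (0.0977), -2.83 ± 0.62 for *Epcam* (0.058) and -4.12 ± 1.03 for *Cd24* (0.0845). The ratio of *Krt19* was -11.80 and that of *Cd24* -11.17 in rat C, against -2.68 to -5.49 and -2.48 to -4.65 in the other 5 animals. *Cd24* encodes a protein used in the sort, and *Itgb1*, which was higher in basal cells (1.71 ± 0.34, adjusted p = 0.0434), encodes the other, CD29. Both therefore check the gates and are no finding, also where they are counted in the lists.

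**Figure D1:**
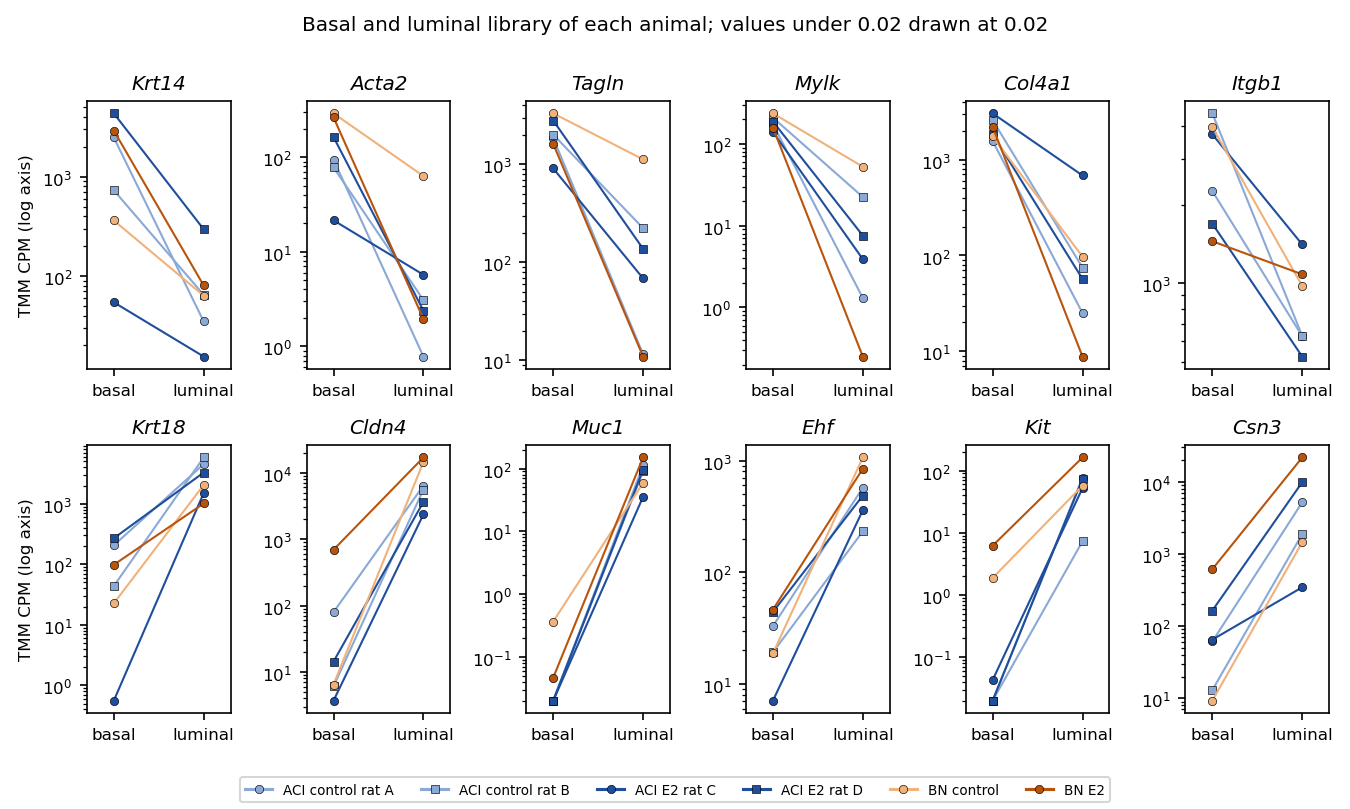
Level in TMM CPM (log axis) of 12 genes in the basal and the luminal library of each animal, joined by a line, with values under 0.02 drawn at 0.02. The lines of *Krt14*, *Acta2*, *Tagln*, *Mylk*, *Col4a1* and *Itgb1* fall from basal to luminal, those of *Krt18*, *Cldn4*, *Muc1*, *Ehf*, *Kit* and *Csn3* climb, and those of rat C start lowest for *Krt14*, *Acta2* and *Krt18*.

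Of the 15 contractile genes of myoepithelial cells, all had a fitted ratio above 0 and 5 passed the test (*Acta2*, *Mylk*, *Tagln*, *Smtn* and *Cald1*), with a median ratio of 4.54. *Acta2*, smooth muscle actin, had 94.5 and 78.0 CPM in the basal libraries of the ACI controls, 21.5 in rat C, 163 in rat D, 290.4 in BN control and 264 in BN E2. The luminal libraries had 0.78 and 3.10 CPM, 5.73, 2.39, 63.2 and 1.95 CPM in the same order. The groups overlapped through the luminal library of BN control, but *Acta2* was higher in the basal library of every animal (4.90 ± 0.97, adjusted p = 0.0426). *Mylk*, the kinase that activates smooth muscle myosin, did not overlap, with 140 to 236 CPM in basal and 0.25 to 52.5 CPM in luminal libraries (5.06 ± 1.00, adjusted p = 0.0426). *Smtn* (smoothelin) and *Cald1* (caldesmon), which bind actin filaments, had smaller ratios of 2.60 ± 0.43 and 2.09 ± 0.39 (adjusted p = 0.027 and 0.0362). *Myh11*, smooth muscle myosin, had 1459 to 4054 CPM in basal and 1.00 to 594 CPM in luminal libraries without overlap, and its adjusted p was 0.0711. *Oxtr*, the oxytocin receptor that triggers myoepithelial contraction, was at 0 in both libraries of rat C and had ratios of 2.94 to 7.82 elsewhere (adjusted p = 0.112). The contractile genes summed to between 10100 and 27500 CPM in basal libraries and 314 to 9452 CPM in luminal libraries, with BN control the highest of both. Without rat C, 7 of the 15 passed, without BN E2 1, and without any of the other 4 animals none.

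Among basal keratins and transcription factors 2 of 13 passed, *Krt14* and *Tbx2*, and the median ratio was 2.84. *Krt14* had a ratio of 6.15 and 3.50 in the ACI controls, 1.81 in rat C, 3.88 in rat D, 2.51 in BN control and 5.18 in BN E2. All were above 0, and rat C had the smallest (3.82 ± 0.63, adjusted p = 0.0265). *Krt5*, its partner keratin, ranged from 9.49 in rat A to 1.05 in BN control (3.72 ± 1.36, adjusted p = 0.206). The luminal libraries of *Krt5* lay between 0.99 CPM in rat A and 425 CPM in rat D, above the lowest basal library of 120 CPM. *Tp63*, the p63 transcription factor of basal cells, was at 0 in both libraries of rat C and had ratios of 3.53 to 10.15 in the other 5 animals (adjusted p = 0.0995). Without rat C, 5 of the 13 passed, and with any other animal left out none did.

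Of the 14 adhesion and basement membrane genes, 14 had a fitted ratio above 0 and 3 passed, *Itgb1*, *Col4a1* and *Cav1*, with a median ratio of 2.43. *Itgb1* encodes CD29, which was used in the sort, so its call only checks the gate. *Col4a1*, a chain of basement membrane collagen, lay between 1565 and 3039 CPM in basal libraries and between 8.82 and 683 CPM in luminal libraries (5.06 ± 0.77, adjusted p = 0.0224). The basal levels thus varied less than 2-fold among the 6 animals, and rat C had the highest luminal level. *Cav1*, the main protein of caveolae, had 611 to 1765 CPM against 4.06 to 373 CPM (4.29 ± 0.81, adjusted p = 0.0383). *Lamb3*, a chain of laminin-332, missed the threshold at a ratio of 3.47 ± 1.06 (adjusted p = 0.142), with a ratio of 0.20 in rat C. Without that rat, 8 of the 14 passed, without BN E2 2, and without any of the other 4 animals none.

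Pericytes and vascular smooth muscle share contractile genes with myoepithelial cells. All 8 pericyte markers had fitted ratios above 0, with a median of 4.35, and *Kcnj8*, a potassium channel of pericytes, passed the test (4.08 ± 0.48, adjusted p = 0.0146). Leaving out an animal left 0 to 3 of the 8 past the threshold. In basal libraries the 8 summed to 482 and 2376 CPM in the ACI controls, 3392 in rat C, 886 in rat D, 2083 in BN control and 140 in BN E2, and in luminal libraries to 40.5 to 556 CPM. *Rgs5* had 28.1 to 768 CPM in 5 basal libraries and 0.047 CPM in the basal library of BN E2. *Kcnj8*, *Cspg4* and *Higd1b* were at 0 there, and *Notch3*, a receptor of pericytes, had 0.093 CPM against 185 to 622 CPM in the other basal libraries. In that library, where 5 of the 8 pericyte markers were at or near 0, the contractile genes summed to 16520 CPM and *Acta2* had a ratio of 7.01. What share of the contractile counts came from which cells was not tested. *Des*, the intermediate filament protein desmin, had 10.7 CPM in it against 571 to 3080 CPM in the other basal libraries, and its ratio of -0.39 was the only one below 0 (3.31 ± 0.75 over all animals, adjusted p = 0.0655).

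Fibroblast markers had none of 7 genes past the threshold in edgeR, with or without rat C, 3 at an unadjusted p under 0.05, 3 calls in DESeq2 and none in limma-voom, and a median ratio of 2.27. They summed to 571 to 2858 CPM in 5 basal libraries and to 16310 CPM in that of BN E2. In luminal libraries they summed to 5099 CPM in rat C and to 55.7 to 1273 CPM in the other animals. *Dcn*, the proteoglycan decorin, had 5063 CPM in the basal library of BN E2 against 18.3 to 512 CPM in the other basal libraries. Its ratio was 7.06 in BN E2 against -1.78 to 0.39 in the other 5 animals. *Lum* (lumican) had a ratio of 6.20 and *Col1a1* (type I collagen) of 7.48 in BN E2, the highest of the 6 for each. The BN E2 basal library thus had the highest sum of fibroblast markers, with most pericyte markers at or near 0. The pericyte marker *Abcc9* was kept there at 50.0 CPM, against 56.5 to 649 CPM in the other basal libraries. The part of these stromal markers in the other results was not tested.

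Of 10 endothelial markers *Eng* (3.12 ± 0.41, adjusted p = 0.0146) and *Esam* (3.59 ± 0.68, adjusted p = 0.0383) were higher in basal cells. The defining *Pecam1* and *Cdh5*, whose protein products CD31 and VE-cadherin mark endothelium, had at most 5.61 and 10.0 CPM in any library. *Esam* was at 0 in the basal library of BN E2. Leaving out an animal left 0 to 2 of the 10 past the threshold. Of the other lists of non-epithelial cells, *Fabp4*, a fatty acid binding protein of adipocytes, was higher in basal cells (3.59 ± 0.66, adjusted p = 0.0352, 1 of 5 adipocyte genes), and none of 7 Schwann cell, 10 myeloid, 1 lymphoid and 1 red blood cell genes passed in edgeR. At an unadjusted p under 0.05 there were 4 Schwann cell genes and none of the other 3 lists, while DESeq2 called 4 Schwann cell and 2 myeloid genes and limma-voom 3 Schwann cell genes. Without rat C, 2 of 7 Schwann cell genes passed and the myeloid, lymphoid and red blood cell lists held none, and *Fabp4* lost the call without any other animal. The myeloid markers had a median ratio of 5.04 in BN control and of -1.10 to -4.01 in the other 5 animals. Their summed level gave another picture. It was higher in the basal than in the luminal library in rat A (285 against 37.9 CPM) and in BN control (700 against 449 CPM), and lower in the remaining animals. *Ptprc*, the leukocyte antigen CD45, had 7.14 CPM in the basal library of BN control and at most 1.53 CPM in the other libraries.

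**Figure D2:**
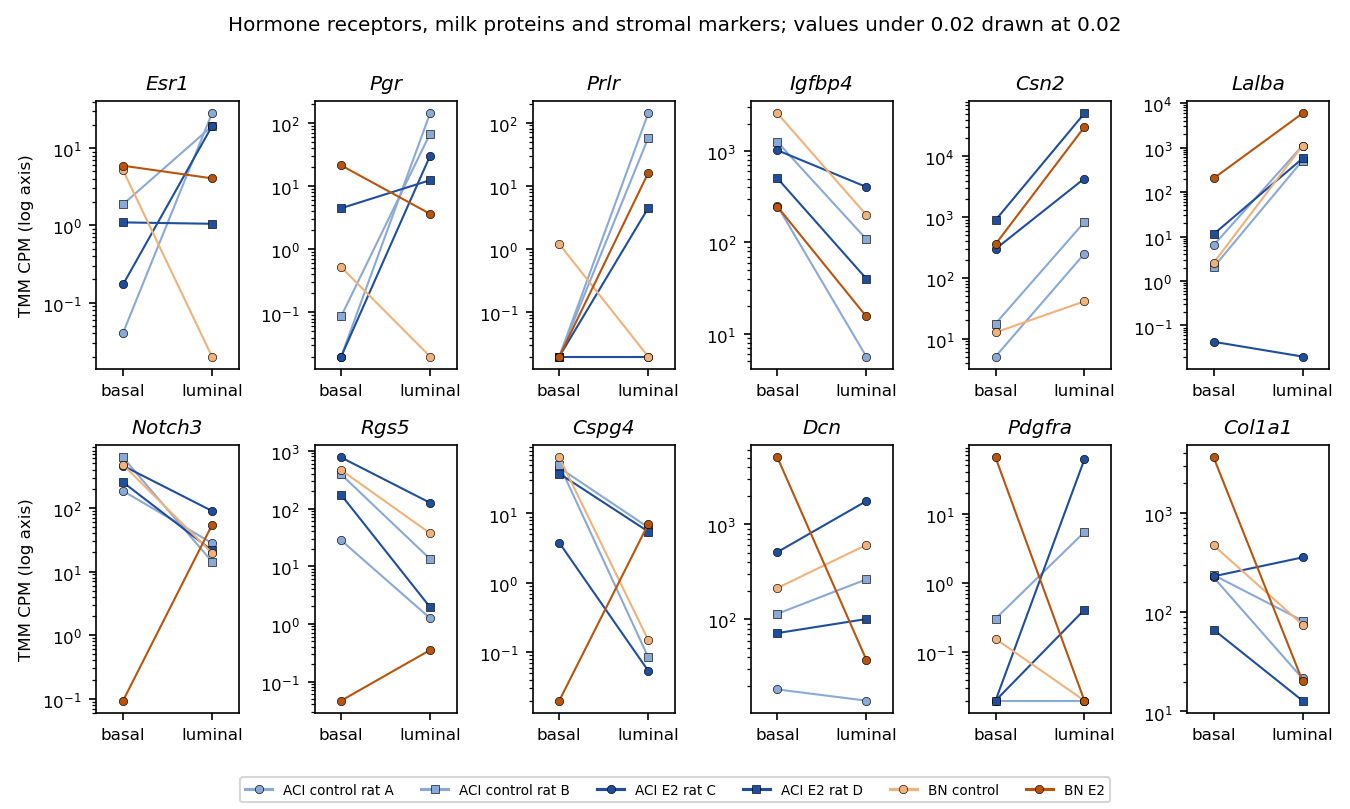
Level in TMM CPM (log axis) of hormone receptors and *Igfbp4*, milk proteins and stromal markers in the basal and the luminal library of each animal, joined by a line, with values under 0.02 drawn at 0.02. *Notch3*, *Rgs5* and *Cspg4* are near the floor in the basal library of BN E2, where *Dcn* and *Col1a1* are highest, and *Csn2* is higher in the luminal library of all 6 animals.

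Genes of milk proteins and lipid secretion gave the largest median ratio of the lists defined for a luminal function, -5.52 over 16 genes, and 6 passed the test, all of them lower in basal cells. These were the caseins *Csn1s1*, *Csn2* and *Csn3*, *Lalba*, which encodes the α-lactalbumin needed for lactose synthesis, and *Btn1a1* and *Muc15* of the milk fat globule membrane. Without rat C, 12 of the 16 passed, and with any other animal left out 1 to 4 did. Several caseins lie side by side on chromosome 14 and are known targets of the prolactin-activated factor STAT5, which binds palindromes of the form TTCNNNGAA. This form was looked for in the 250 bases before the start of each gene (RefSeq, GRCr8), where it is its own reverse complement, so that one strand covers both. Of the 16 genes 13 matched a promoter, and 5 held the form, against 2566 of 33469 promoters (7.67%) and 545 of the 9011 tested genes with a promoter (6.05%). The 5 stretches of 80 bases around the match are shown because they stand before milk genes, of which *Csn1s1*, *Csn1s2b* and *Csn2* are described next. They are written 5′ to 3′ on the strand of the gene, with the match in capitals, and lie at chr14:20638900-20638979 (*Csn1s1*, minus strand), chr14:20574522-20574601 (*Csn1s2a*, minus strand), chr14:20545669-20545748 (*Csn1s2b*, minus strand), chr14:20601694-20601773 (*Csn2*, plus strand) and chr7:136561425-136561504 (*Glycam1*, minus strand).
Csn1s1: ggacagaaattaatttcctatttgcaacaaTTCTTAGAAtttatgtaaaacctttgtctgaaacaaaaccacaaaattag
Csn1s2a: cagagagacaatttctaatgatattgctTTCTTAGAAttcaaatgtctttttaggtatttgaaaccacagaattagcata
Csn1s2b: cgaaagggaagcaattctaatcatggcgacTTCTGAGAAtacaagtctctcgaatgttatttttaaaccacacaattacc
Csn2: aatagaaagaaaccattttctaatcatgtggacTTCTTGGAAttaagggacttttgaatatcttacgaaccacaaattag
Glycam1: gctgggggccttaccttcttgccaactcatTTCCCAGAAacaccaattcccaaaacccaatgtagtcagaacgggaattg

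In the 4 caseins the match began 97 to 102 bases before the start and in *Glycam1*, which encodes a mucin-like milk protein, 175 bases before it. *Csn1s1* and *Csn1s2a* shared the 9 letters of the match. No binding was measured in these libraries, and a match describes the letters only.

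*Csn2*, the β-casein gene, had 249 and 827 CPM in the luminal libraries of the ACI controls, 4322 in rat C, 51126 in rat D, 41.0 in BN control and 30477 in BN E2. Its basal libraries had 5.04 and 17.6 CPM in the ACI controls, 298 in rat C, 891 in rat D, 12.6 in BN control and 357 in BN E2. Both lineages thus had their 3 highest levels in the 3 E2-treated animals. The ratio was -5.60 and -5.55 in the ACI controls, -3.86 in rat C, -5.84 in rat D, -1.69 in BN control and -6.41 in BN E2 (-4.97 ± 0.74, adjusted p = 0.0215), and its change with E2 was -1.03 ± 1.36 (unadjusted p = 0.477, edgeR). That change averages unlike strains. From BN control to BN E2, 1 animal each, the ratio went from -1.69 to -6.41. In ACI the ratios of the treated rats, -3.86 and -5.84, lay on either side of those of the controls.

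*Csn1s1* had ratios between -2.51 in rat C and -6.44 in rat B (-4.74 ± 0.55, adjusted p = 0.00935), and *Csn3*, κ-casein, between -2.41 in rat C and -7.28 in BN control (-5.86 ± 0.77, adjusted p = 0.0146). In both genes rat C had the ratio nearest to 0. *Lalba* had 512 to 5883 CPM in 5 luminal libraries and 0 in that of rat C, where its basal library had 0.043 CPM. *Wap*, whey acidic protein, was lower in basal cells in all 6 animals, with ratios of -1.97 in rat C to -8.99 in rat A (adjusted p = 0.0737). *Csn1s2b* was at 0 in the basal libraries of all 3 control animals and had 7.63 to 16.6 CPM in those of the E2-treated animals, while its luminal libraries had 7.51 to 24.3 CPM in the controls and 25.8 to 160 CPM under E2. Its change with E2 was 8.94 ± 1.87 (unadjusted p = 0.00912, adjusted p = 1, edgeR), a fitted value that depends on how counts of 0 are handled. With DESeq2 *Csn1s2b* passed the threshold for the E2 change.

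Of 12 genes of luminal progenitors and alveolar cells, *Kit* and *Folr1* passed and were lower in basal cells, with a median ratio of -3.61. The list held 2 calls without rat C and none without any other animal. *Kit*, the stem cell factor receptor of luminal progenitors, had 76.5 and 7.30 CPM in the luminal libraries of the ACI controls, 52.2 in rat C, 73.5 in rat D, 57.1 in BN control and 162 in BN E2. In the basal libraries it was at 0 to 0.043 CPM in the 4 ACI rats and at 1.88 and 6.19 CPM in BN control and BN E2 (fitted log2 ratio -8.69 ± 1.66, adjusted p = 0.04). The ratio was nearer to 0 in both BN animals (-4.86 and -4.69) than in any ACI rat (-6.34 to -9.71), with an unadjusted p of 0.00352 for the strain difference in edgeR and an adjusted p of 1, while DESeq2 called it. *Elf5*, a factor of alveolar cells, was higher in the luminal library of all 6 animals (-5.81 ± 1.71, adjusted p = 0.131).

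Among 15 luminal transcription factors *Ehf*, an epithelial ETS factor, passed the test, and the median ratio was -2.56. *Ehf* had ratios of -4.11 and -3.59 in the ACI controls, -5.64 in rat C, -3.46 in rat D, -5.82 in BN control and -4.19 in BN E2. The ratio was at or below -3.46 in every animal, and the libraries did not overlap (-4.46 ± 0.44, adjusted p = 0.00661), with 7.08 to 46.3 CPM in basal and 232 to 1066 CPM in luminal libraries. *Foxa1*, a partner of the estrogen receptor, was higher in the luminal library of all 6 animals with ratios of -1.77 to -9.10 (adjusted p = 0.108). *Gata3*, a regulator of luminal fate, had ratios on both sides of 0, from -4.76 in rat C to 0.61 in rat D (-1.17 ± 0.71, adjusted p = 0.455). Without rat C, 4 of the 15 factors passed, and with any other animal left out 1 did.

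Of 14 hormone receptors and estradiol-regulated genes, *Igfbp4*, an estrogen-induced binding protein of insulin-like growth factors, passed and was higher in basal cells, while the median ratio of the list was -1.27. *Igfbp4* had 250 and 1257 CPM in the basal libraries of the ACI controls, 1019.9 in rat C, 503 in rat D, 2584 in BN control and 247 in BN E2, against 5.63 to 405 CPM in the luminal libraries (3.64 ± 0.52, adjusted p = 0.0175). It was higher in the basal library of every animal, and it lost the call without rat B, rat D, BN control or BN E2. *Esr1*, the estrogen receptor α gene, had ratios of -7.74 and -3.29 in the ACI controls, -6.20 in rat C, 0.06 in rat D, 5.85 in BN control and 0.53 in BN E2. Its levels were at most 28.2 CPM, and it did not pass (-2.04 ± 2.74, adjusted p = 0.77).

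*Pgr*, the progesterone receptor gene, had 143 and 68.1 CPM in the luminal libraries of the ACI controls, 30.4 in rat C, 12.5 in rat D, 0 in BN control and 3.66 in BN E2. In basal libraries it had at most 0.087 CPM in 3 ACI rats, 4.49 in rat D, 0.52 in BN control and 21.4 in BN E2. Its ratio was below 0 in the 4 ACI rats (-1.46 to -10.62) and above 0 in both BN animals (2.75 and 2.52), a difference of 12.72 ± 4.72 between the strains (unadjusted p = 0.0362, adjusted p = 1, edgeR). *Wnt4*, a secreted ligand that progesterone induces in luminal cells, also had ratios below 0 in the ACI rats (-0.11 to -4.34) and above 0 in BN (2.44 and 1.16), with 1.90 and 14.3 CPM in the BN luminal libraries. *Prlr*, the prolactin receptor, was at 0 in both libraries of rat C and had ratios of -5.64 to -10.58 in the other ACI rats, 3.82 in BN control and -7.46 in BN E2. For *Wnt4* the unadjusted p of the strain difference was 0.0226 and the adjusted p was 1. No strain difference of these receptors and targets passed the threshold in edgeR, and of them *Pgr* passed it in DESeq2.

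Among cyclin-dependent kinase (CDK) inhibitors and G1 cyclins, *Cdkn1c*, which encodes the CDK inhibitor p57, was higher in basal cells, 1 of 11 genes with a median ratio of 0.49. Without rat C 2 genes of the list passed, and without any other animal none. *Cdkn1c* had 134 to 188 CPM in the 6 basal libraries and 52.5, 46.8, 26.96, 27.1, 8.46 and 12.7 CPM in the luminal libraries of rats A, B, C and D, BN control and BN E2. The groups did not overlap, and the luminal level varied more among the animals than the basal level (2.61 ± 0.42, adjusted p = 0.0257). Its ratio was larger in both BN animals (4.21 and 3.41) than in the ACI rats (1.59 to 2.40), with an unadjusted p of 0.0311 and an adjusted p of 1 in edgeR. *Cdkn1b*, the gene of the p27 inhibitor that the series is about, had ratios of 1.17 and 1.57 in the ACI controls, -0.14 in rat C, 0.98 in rat D, 2.34 in BN control and 0.07 in BN E2 (1.00 ± 0.58, adjusted p = 0.432). Its basal level was 34.4, 29.1, 11.1, 30.1, 51.2 and 12.3 CPM in the same order, and its luminal level lay between 9.72 and 15.2 CPM. The change of its ratio with E2 was -1.40 ± 1.23 (unadjusted p = 0.298) and the strain difference 0.31 ± 1.30 (unadjusted p = 0.817). The basal level was lower in rat C and BN E2 than in the other 4 animals, and no difference of the ratio was detectable with these animals.

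None of 21 genes of S phase and none of 21 genes of G2 and M phase passed in edgeR, with or without rat C, and their median ratios were -0.65 and -0.47. At an unadjusted p under 0.05 there were 2 and 0 of them, DESeq2 called 1 and 0, and limma-voom none. The median change of the ratio with E2 was -0.89 for S phase (8 of 21 genes higher) and -2.47 for G2 and M phase (3 of 21). BN minus ACI had medians of 0.83 (13 of 21 higher) and 2.31 (16 of 21). For these changes 1 S phase gene had an unadjusted p under 0.05 in edgeR, for strain, and DESeq2 called *Tpx2* for strain. *Mki67*, the proliferation marker Ki67, had ratios of -4.79 in rat C and -0.90 to 1.54 in the other animals. The 13 immediate early genes, which cells switch on within minutes of a stimulus, held none that passed in edgeR (4 unadjusted, 3 in DESeq2, 2 in limma-voom), and their summed level was high in both lineages, 33150 to 92610 CPM in basal and 18850 to 158400 CPM in luminal libraries. Their median ratio was -0.69 in both ACI controls, 0.73 in rat C, 0.58 in rat D, -0.84 in BN control and -0.52 in BN E2. The 2 E2-treated ACI rats were thus above 0 and the other 4 animals below it. Of 35 ligands and receptors between the layers, *Dll1* passed. Without rat C 6 did, without BN E2 1, and without any of the other 4 animals none, and the adjusted p of *Dll1* was above 0.05 without each animal other than rat C. *Nrg1*, a ligand of ErbB receptors, had ratios of 2.98 to 5.23 in ACI rats, -1.69 in BN control and 1.64 in BN E2 (2.70 ± 0.89, adjusted p = 0.167).

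**Figure D3:**
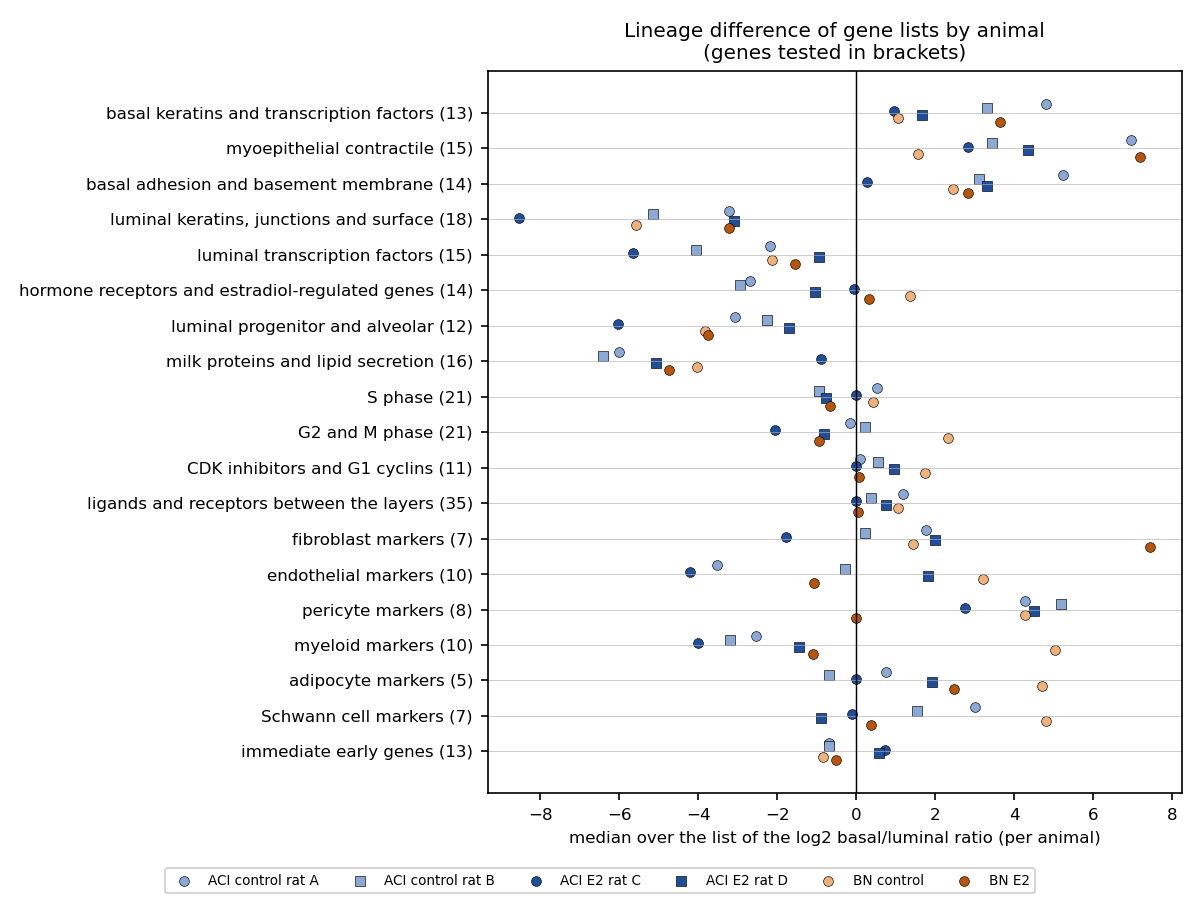
Median over each gene list of the log2 basal over luminal ratio (horizontal axis) in each of the 6 animals (points), with the number of genes tested in brackets. Contractile genes lie between 1.56 and 7.20 and luminal keratins, junctions and surface genes between -3.10 and -8.53, while myeloid markers lie at 5.04 in BN control and below 0 in the other animals.

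Genes that separate the lineages in other rats gave a measure that does not depend on the genes chosen here. In wild-type rats of 4 weeks, 1812 genes were higher in basal and 1377 in luminal cells by edgeR's test with the animal as a block and a log2 ratio beyond 1, and 1707 and 1340 of them were tested here. Of the 1707 basal genes 137 passed in the same direction here (8.03%, against 1.59% of all genes) and 1 in the other, with a median ratio of 2.01. Of the 1340 luminal genes 95 passed in the same direction (7.09%, against 0.864%) and 1 in the other, with a median ratio of -1.99. Seen from the estradiol experiment, 137 of its 181 basal genes that were tested at 4 weeks (75.7%) and 95 of its 102 luminal genes (93.1%) were in the lists.

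The median ratio of the basal list was 2.498 and 1.64 in the ACI controls, 0 in rat C, 1.72 in rat D, 1.69 in BN control and 2.02 in BN E2. The median ratio of the luminal list was -1.74 and -1.95 in the ACI controls, -0.67 in rat C, -1.38 in rat D, -0.94 in BN control and -1.92 in BN E2. Rat C was nearest to 0 in both, and 20.6% of the basal and 21.3% of the luminal list were at 0 in both of its libraries, against 0.82% to 6.03% in the other animals. Restricted to genes with at least 10 counts in every library (558 basal and 392 luminal genes), an alternative chosen after the data were seen, its medians were 0.82 and -0.49 and still the nearest to 0 of the 6.

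E2-treated animals had a mean basal list ratio of 1.25 ± 1.09 (SD, n = 3) and control animals of 1.94 ± 0.48 (SD, n = 3), a difference of -0.70 (two-sided exact permutation test, p = 0.6, the smallest possible being 0.1). For the luminal list the means were -1.32 ± 0.63 under E2 and -1.55 ± 0.53 in controls, a difference of 0.22 (exact permutation test, p = 0.6). Both differences point toward a smaller lineage difference under E2, and both rest on rat C. Without it the difference of the basal list was -0.087 and that of the luminal list -0.090, which turns the direction of the latter.

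**Figure D4:**
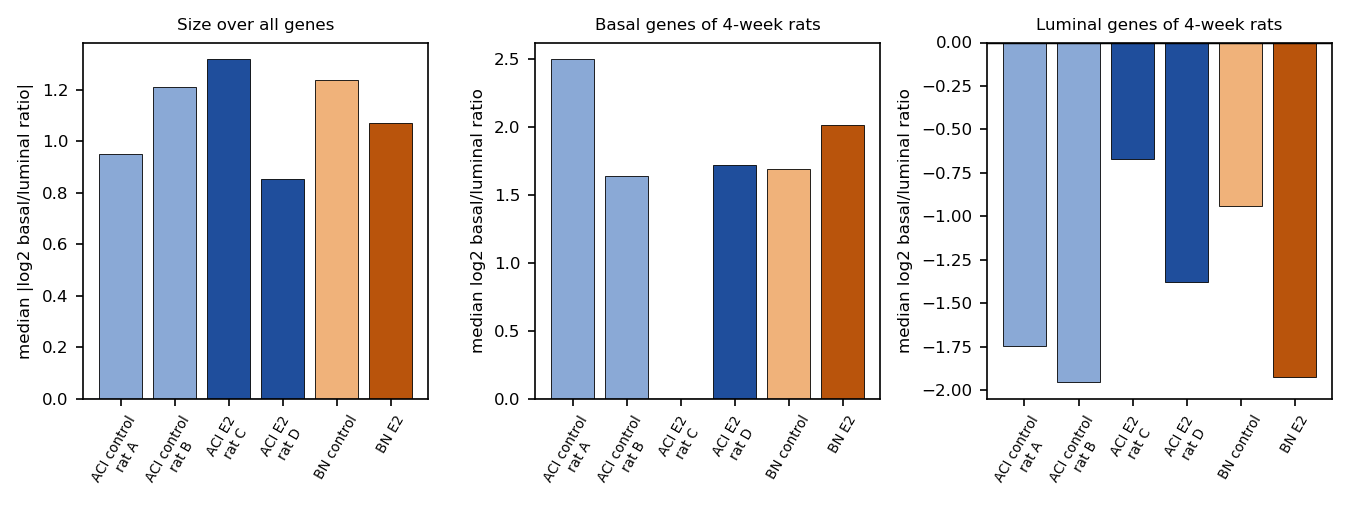
Left, median absolute log2 basal over luminal ratio over the 11808 genes tested, and middle and right, median ratio of the genes higher in basal and in luminal cells of 4-week rats, as 1 bar for each of the 6 animals on axes from 0. Rat C has the largest size over all genes, 1.32, and the values nearest to 0 for both lists, 0 and -0.67.

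The size of the lineage difference over all genes, as the median absolute log2 ratio, was 0.95 and 1.21 in the ACI controls, 1.32 in rat C, 0.85 in rat D, 1.24 in BN control and 1.07 in BN E2. The control animals lay within the range of the E2-treated animals. The mean was 1.08 ± 0.23 (SD, n = 3) under E2 and 1.13 ± 0.16 (SD, n = 3) in controls, a difference of -0.053 (exact permutation test, p = 0.8, the smallest possible being 0.1). Between strains the mean was 1.15 ± 0.12 (SD, n = 2) in BN and 1.08 ± 0.22 (SD, n = 4) in ACI, a difference of 0.072 (exact permutation test, p = 0.667, the smallest possible being 0.0667). The size ran opposite to the lists in rat C, in which 45.5% of the tested genes were at 0 in at least 1 library of the pair, against 11.8% to 21.9% in the other animals. Neither a shrinking nor a growth under E2, nor a difference between ACI and BN, was larger than the spread between animals. Among genes with a mean log2 CPM over 5 both differences changed sign, to 0.017 for E2 and -0.0224 for BN.

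Gene by gene, no change of the lineage ratio with E2 passed the threshold in edgeR (0% of the genes tested), at a median standard error of 2.27 on the log2 scale. At an unadjusted p under 0.05 there were 243 genes, 121 with a higher and 122 with a lower ratio under E2. Of these 243, the change ran against the direction of the gene's lineage difference in 149 (61.3%), toward 0 or past it, and with that direction in 94, while 48.7% of all genes tested ran against it. Without rat D it ran against it in 38.4% of 614 such genes, so the majority among genes chosen by this p rests on that animal. Among the 290 lineage genes the change ran against their direction in 176 (60.7%). Among the lineage genes called with an animal left out, the share was 51.9% (without rat B) to 74.4% (without BN control), and 67.4% without rat D. limma-voom gave no gene either (517 at an unadjusted p under 0.05), and DESeq2 gave 121 genes. Of these, 103 had at least 1 library at 0, a larger share than the 51% among all tested genes.

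The genes with the lowest unadjusted p for a higher ratio under E2 were *Il23a*, *Pi16*, *Enpp2*, *Gsc* and *F3*, and for a lower ratio *Cst3*, *Nt5e*, *Calml3*, *Ptger4* and *Cat*. All of them missed the threshold, with adjusted p = 1 in edgeR, while DESeq2 called 9 of the 10, all but *Cat*, with adjusted p from 4.08e-06 to 0.0251. *Il23a*, a subunit of interleukin 23, had ratios of -2.72 and -2.27 in the ACI controls, 2.48 in rat C, 1.19 in rat D, -6.02 in BN control and -2.51 in BN E2, so that the treated animals were above the controls of their own strain (change 4.06 ± 0.55, unadjusted p = 0.000337). *F3*, tissue factor, the starter of coagulation, had -2.03, -2.09, 1.305, 0.40, -2.64 and -0.97 in the same order (2.499 ± 0.51, unadjusted p = 0.00286). *Cst3*, the protease inhibitor cystatin C, had 3.04, 3.12, 0.90, 0.43, 2.10 and -0.43 (-2.45 ± 0.41, unadjusted p = 0.000985). In *F3* and *Cst3* the 3 treated animals did not overlap the 3 controls. The genes named here were chosen by their p for this change, so such a separation is no further evidence.

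*Cat*, the peroxide-degrading enzyme catalase, had 139, 113, 149, 149, 171 and 111 CPM in basal libraries in that order and 68.3, 66.2, 269, 288, 129 and 304 CPM in luminal libraries. Its ratio was above 0 in the 3 controls (1.03, 0.77 and 0.40) and below 0 in the 3 treated animals (-0.85, -0.95 and -1.45), a change of -1.82 ± 0.43 (unadjusted p = 0.00591). The basal levels overlapped between treatments and the luminal levels did not, in a gene that was also chosen by its p for this change. *Des* had an unadjusted p of 0.0155 for E2, with a change of -2.004 ± 0.60. As with the stromal markers above, the BN E2 pair had the lowest *Des* ratio. *Eng* had an E2 change of -1.46 ± 0.46 (unadjusted p = 0.0187).

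No strain difference of the lineage ratio passed in edgeR either (0% of the genes tested), at a median standard error of 2.41, with 234 genes at an unadjusted p under 0.05, 149 with a higher ratio in BN and 85 with a higher ratio in ACI. limma-voom gave none (490 unadjusted) and DESeq2 123, of which 100 had at least 1 library at 0, against the same 51% of all tested genes. Of the 234, the BN ratio differed from that of ACI in the direction of the lineage difference in 137 (58.5%) and against it in 97, while 47.7% of all genes tested went in its direction. Whether the E2 change itself differed between strains was asked with 1 BN animal per treatment, and no gene passed (406 at an unadjusted p under 0.05, edgeR, and 250 genes with DESeq2).

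The lowest unadjusted p for a higher ratio in BN belonged to *Abcc9*, *Has2*, *S100a6*, *Calml3* and *Tnfrsf21*, and for a lower ratio to *Il23a*, *Des*, *Cnp*, *Sectm1b* and *Ptger4*, all with an adjusted p of 1 in edgeR. DESeq2 called 9 of these 10, all but *Sectm1b*, with adjusted p from 7.37e-06 to 0.0423. *S100a6*, a calcium-binding protein, had ratios of -2.26 and -1.15 in the ACI controls, -0.33 in rat C, -0.22 in rat D, 1.78 in BN control and 2.49 in BN E2 (BN minus ACI 3.13 ± 0.56, unadjusted p = 0.00138). *Tnfrsf21*, death receptor 6, had -2.45, -2.33, -1.18 and -1.53 in the ACI rats and 0.69 and 0.64 in BN (2.54 ± 0.49, unadjusted p = 0.00214). Both genes were higher in luminal cells of all 4 ACI rats and higher in basal cells of both BN animals. They were chosen by their p for the strain difference, so this is no further evidence. *Has2*, hyaluronan synthase, was at 0 in both BN luminal libraries and had 8.04 to 129 CPM in the ACI luminal libraries (unadjusted p = 0.000918). *Abcc9*, a potassium channel subunit and pericyte marker, had at most 0.050 CPM in the BN luminal libraries and 2.13 to 85.2 CPM in those of ACI (unadjusted p = 0.000657).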

How the data were processed

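The deposited values are counts per gene without normalization. The authors made SMARTer libraries from small amounts of RNA, sequenced single ends, mapped them to rn6 (STAR 2.5.1b) and counted them with htseq-count. Of 17356 genes, 11808 passed filterByExpr in edgeR 4.0.16 (R 4.3.3). Library sizes were scaled by TMM, and the quasi-likelihood test of edgeR was run for lineage with the animal as a block, Benjamini-Hochberg adjustment and a threshold of 0.05. E2 and strain changes of the ratio were terms of a fit with both. Libraries with the same animal number or numbers in their titles were taken as pairs. The correlation of their residuals was 0.053 to 0.22. Basal libraries had mean correlations of -0.054 to 0.0020 with the luminal libraries of the other animals. Per-animal ratios used a prior count of 2. Depth was 13659389 to 25280421 counts per library and limits genes with few counts. Alternatives used DESeq2 1.42.0 and limma 3.58.1.

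Genes named are *Cdkn1b*, members of 21 lists, and per direction the 10 with the largest ratio among those past the threshold, with a mean log2 CPM above 2 and the same direction in all 6 animals, or for changes the 5 with the lowest unadjusted p. Members and lists were chosen with earlier results of these data known. No 2 libraries of 1 group were duplicates. Within a lineage the titles give each library its own animal number or numbers, and p-values measure the spread between these animals. Promoter sequences are from RefSeq (GRCr8), and no GRCr8 position was compared with rn6. Files of the other experiments were used only for the 4- and 9-week lists.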

Additional observations from a re-analysis of the deposited data

Results flagged for a closer look

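In 149 sets of 6 values, 11 had a highest or lowest value whose gap to the nearest other value exceeded Dixon's 95% limit for the range, and chance gives about 5% of sets. Of the 116 genes tested in this way, 7 were among them, which is close to the share that chance gives. In rat C (ACI E2) the log2 basal over luminal ratio was -11.80 for *Krt19* and -11.17 for *Cd24*, both far below the other animals, the share of tested genes at 0 in a library of the pair was 45.5%, and the median ratio of the basal genes of 4-week rats was 0. In BN E2 the ratio was -8.19 for *Notch3*, -6.28 for *Cspg4* and 7.06 for *Dcn*. In BN control the ratio of *Ptprc* was 6.31 and the median ratio of the myeloid markers 5.04, and the basal library had the highest share of reads not assigned to a gene among the 6 basal libraries, 70.9%. In rat A (ACI control) the ratio of *Adcy3* was 9.81. Whether the stromal and immune markers have a part in these values was not tested.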

How the results depend on the processing

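Of the 290 lineage genes, RLE size factors gave 283, no filter on low counts 297 and, without the animal as a block, 220 (127 basal, 93 luminal, 174 shared). At least 10 counts in every library gave 544 (357 and 187), DESeq2 2415 (1300 and 1115), limma-voom 890 (545 and 345), and the average over treatments and strains in the fit with both changes 106 (70 and 36). Leaving out an animal gave 27 to 642 (without rat A 59, without rat B 27, without rat C 642, without rat D 43, without BN control 39, without BN E2 122). Basal genes were 64.8% of the calls, and 53.8% with DESeq2, 48.1% without rat B and 74.4% without rat D.

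For the E2 change of the ratio every alternative gave 0 genes except DESeq2 with 121 (30 higher, 91 lower), for strain the same with 123 (102 and 21), and for the term of both DESeq2 gave 250 (98 and 152). Without the block for pairs, 322 and 266 genes had an unadjusted p under 0.05 for E2 and strain and none passed.

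The size difference for E2 reversed to 0.017 at a mean log2 CPM over 5 and to 0.025 in genes with at least 10 counts in every library (chosen after seeing the data), and ranged from -0.182 to 0.027 leaving out an animal. For strain these were -0.0224, -0.0028 and -0.0219 to 0.155, reversed without rat D (-0.0064) and without BN control. The E2 difference of the basal list ranged from -1.05 to -0.087 and of the luminal list from -0.090 (reversed, without rat C) to 0.535. The smallest permutation p these designs allow lies above 0.05, so their p-values say nothing about stability. The cause of these changes was not tested. Among 116 genes examined one by one, 20 lost the lineage call without the block, 1 without rat C and 29 to 43 without any other animal. Sign changed only in 6 that had not passed and did not pass then, namely *Cdh5* (0.096 without the block), *S100a6* (-0.015 with RLE, -0.014 with DESeq2) and, with an animal left out, *Dcn* (-0.93 to 0.062), *Cat* (-0.43 to 0.087), *Lum* (-0.97 to 0.78), *Mki67* (-0.11 to 0.87) and *S100a6* (-0.47 to 0.48). Depth limits genes at 0 in a library.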
